A study of Mus musculus with 6 samples.

Results

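The genes described here are 48 interferon-stimulated genes, among them the oligoadenylate synthetase (OAS), IFIT, guanylate-binding protein (GBP), PARP and IFI families. They were taken by gene symbol from a list, and all 48 were found among the 54532 gene identifiers measured. This list and the other gene lists below were chosen with earlier results of these data known. The cells were immortalised bone marrow-derived macrophages of the mouse (iBMDM), a line kept dividing in culture. Compared were 3 libraries in which a short hairpin RNA, shPGAM5, targeted PGAM5, a phosphatase of mitochondria, and 3 in which shDRP1 targeted DRP1, the GTPase that divides mitochondria. All 6 libraries came from cells given interleukin-4 (IL-4) at 10 ng/ml for 24 hours. Libraries without IL-4 or with a non-targeting hairpin are not analysed here, so every difference below is PGAM5 knockdown set against DRP1 knockdown. It cannot be told apart which of the knockdowns moved a gene. The titles number the libraries 1 to 3 without saying whether these are separate cultures or separate hairpins. A p-value here therefore measures no more than how these samples spread, and that spread may be technical.

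Interferons are secreted proteins that warn cells of infection. They bind receptors that switch on Janus kinases, and these activate STAT proteins. Type I interferon mainly works through a complex that contains STAT2 and IRF9 and binds the interferon-stimulated response element (ISRE) in promoters, while the response to interferon gamma mainly works through the gamma-activated site (GAS). Macrophages are known to keep a low level of this programme running at rest and to raise it sharply when RNA or DNA of a pathogen is sensed.

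Levels are FPKM, the fragments counted on a gene divided by the length of its exons and scaled to the size of the library, given as mean ± SD with n = 3 libraries per group. Libraries held 16111281 to 21933547 reads. Each hairpin's own target was low, Pgam5 averaging 4.91 ± 0.31 FPKM in PGAM5 knockdown cells against 17.2 ± 0.14 FPKM in DRP1 knockdown cells, and Dnm1l, which encodes DRP1, 17.9 ± 0.75 FPKM with PGAM5 knockdown against 7.57 ± 0.55 FPKM with DRP1 knockdown. Of the exons of Pgam5 58.1% overlap Gm26718 on the opposite strand. Of 9 macrophage markers 8 were at or above 1 FPKM in every library, and Mertk, a receptor for dying cells, was at or near 0. Their summed level was 3760 to 3930 FPKM under PGAM5 knockdown and 4810 to 4860 FPKM under DRP1 knockdown, a difference whose part in the results below was not tested. Not all markers shared it. Lyz2 had 1230 to 1350 FPKM under PGAM5 knockdown against 1950 to 1960 FPKM under DRP1 knockdown, and Cd68 484 to 522 against 674 to 693. Spi1 had 191 to 196 FPKM under PGAM5 knockdown against 191 to 192 under DRP1 knockdown, and Adgre1 43.4 to 44.5 against 42.4 to 44.1. All 4 markers of NK cells were at 0, and no marker of T, B, dendritic, neutrophil, fibroblast, epithelial or endothelial cells reached 1 FPKM in every library. In bulk RNA, fewer cells with a transcript and less of it per cell cannot be told apart. Replicates differed by more than sampling noise, most of all in PGAM5 knockdown library 3, at a chi-square per gene of 5.06 and 6.82 against the others of its group and 2.47 to 2.85 in the other pairs.

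A part of the interferon-stimulated genes was higher in the PGAM5 knockdown and none of those tested was called lower. Genes were tested where the mean over the 6 libraries was at least 1 FPKM, which 29 of the 48 reached. Of these, 14 rose, 0 fell and 15 did not pass at an adjusted p of 0.05 (limma on log2(FPKM + 1), Benjamini-Hochberg over all 10634 genes tested). Without PGAM5 knockdown library 3 the count was also 14, but Ifi47 lost its call (limma adjusted p = 0.075) and Adar passed (0.028). Among all genes tested 13.8% were called higher and 11.7% lower. The median difference, PGAM5 minus DRP1 knockdown, was 0.24 on the log2(FPKM + 1) scale for the 29, against 0.009 for all genes tested. Because the list was chosen with earlier results known, its contrast with all genes was not tested. The 14 were Oas1a, Oas1g, Oas2, Oas3, Oasl1, Ifi47, Parp9, Ifi44, Ifi35, Ifi27, Ddx58, Usp18, Bst2 and Rtp4. Ifi44 and Usp18 were more than 2-fold higher, Rtp4, Oas2 and Ddx58 between 1.5- and 2-fold, and the other 9 less than 1.5-fold.

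The other 19 members lay below the filter and were read by their counts. The deposited FPKM could be turned back into whole reads (96.1% of values above 0 came within 0.02 of a whole number), and voom in limma was run on these for genes with a mean of at least 10 reads. It took in 45 of the 48 and called 18 higher and 1 lower, where 14.7% of all genes were called higher (1717) and 13.3% lower (1554). All 14 named above were among the 18. Dhx58, Samhd1, Trim30a and Xaf1 were the other 4, and Ifit3 was the 1 that fell. With a filter at 0.1 FPKM in place of 1, 45 members were tested, 15 rose and 1 fell, where 9.77% of all genes were called higher and 8.04% lower. Ifi44 was the only member that passed the filter at 1 FPKM with 1 group's mean below 1 FPKM.

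**Figure D1:**
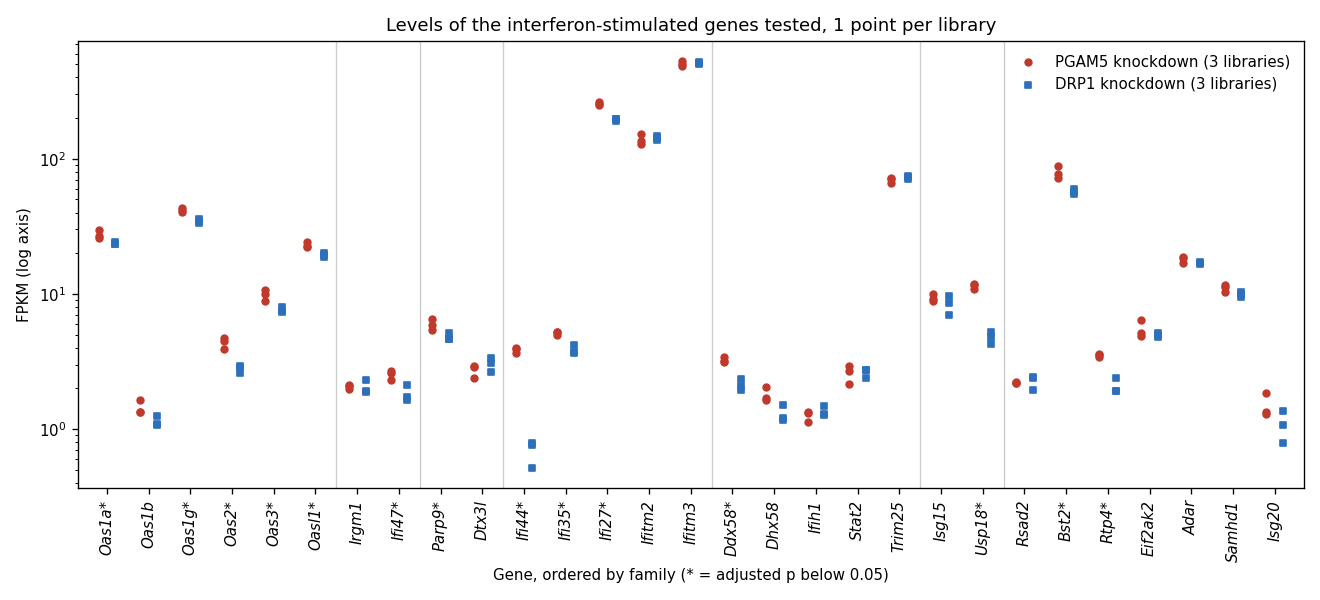
FPKM on a log axis for the 29 interferon-stimulated genes tested, with 1 point per library, the 3 PGAM5 knockdown libraries (red circles) left of the 3 DRP1 knockdown libraries (blue squares), and grey lines between families. Levels ran over more than 2 orders of size between genes, and the gap between groups was widest for Ifi44 and Usp18.

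The levels spanned a wide range. Ifitm3, Ifi27 and Ifitm2 averaged above 100 FPKM over the 6 libraries, 7 members lay between 10 and 100, 19 between 1 and 10, and 19 below 1. Of the 29 tested, 16 had groups that did not overlap with the PGAM5 knockdown above, and 0 with the DRP1 knockdown above. Over all genes tested the shares without overlap were 23% and 20.5%. For such genes the two-sided exact permutation p was 0.1, the smallest that 3 libraries against 3 allow.

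Promoter windows from RefSeq (GRCm38.p6, 250 bases before to 50 after the start) were found for 36 of the 48. The core of the ISRE, searched on both strands as GAAA, any 2 bases and GAAA again, was in a window of 21 of these 36 genes (58.3%), against 3.99% of the 27025 genes with a window. The GAS, searched as TTCNNNGAA, which reads the same on both strands, was in 11 of 36 (30.6%) against 9.55%. Neither motif contains the other, but cores can overlap each other in a run of repeated GAAA, and a GAS can overlap a core. The ISRE core was in 5 of the 9 genes with a window that rose, 8 of 13 that did not pass and 8 of 14 below the filter, so it was present on both sides of the outcome. A match is a run of letters and was not tested as a binding site. Stretches around the core are shown for members that rose (Oas1a, Oas1g, Oas3, Bst2), for members that did not pass (Isg15, Rsad2) and for members on the low side (Ifit1, Ifit3), 5′ to 3′ along the gene's strand, with the letters of each core in capitals.
Oas1a, chr5:120907505-120907570, minus strand: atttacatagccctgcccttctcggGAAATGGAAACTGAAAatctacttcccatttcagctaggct
Oas1g, chr5:120887591-120887656, minus strand: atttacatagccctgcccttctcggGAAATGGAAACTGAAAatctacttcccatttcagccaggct
Oas3, chr5:120777700-120777759, minus strand: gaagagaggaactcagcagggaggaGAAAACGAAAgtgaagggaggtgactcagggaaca
Bst2, chr8:71537562-71537627, minus strand: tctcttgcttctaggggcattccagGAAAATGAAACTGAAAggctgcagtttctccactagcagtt
Isg15, chr4:156200850-156200921, minus strand: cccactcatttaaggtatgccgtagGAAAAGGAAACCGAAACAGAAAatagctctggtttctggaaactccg
Rsad2, chr12:26456538-26456597, minus strand: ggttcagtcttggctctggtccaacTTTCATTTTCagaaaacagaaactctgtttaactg
Ifit1, chr19:34640760-34640838, plus strand: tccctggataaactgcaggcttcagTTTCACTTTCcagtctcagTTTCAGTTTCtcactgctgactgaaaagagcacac
Ifit3, chr19:34583348-34583441, plus strand: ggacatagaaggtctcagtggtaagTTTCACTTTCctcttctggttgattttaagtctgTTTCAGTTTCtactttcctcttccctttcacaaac
Oas1a and Oas1g, whose stretches were identical at 65 of 66 positions, and Bst2 held 2 overlapping cores and Isg15 held 3. Ifit1 and Ifit3 held 2 separate cores each, on the opposite strand.

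Of 5 genes of RNA sensing and signal, Ddx58 rose and 4 did not pass. Ddx58 encodes RIG-I, Ifih1 encodes MDA5, and both start the signal when viral RNA is found in the cytoplasm. Ddx58 had 3.39, 3.12 and 3.20 FPKM in the PGAM5 knockdown libraries, against 1.95, 2.35 and 2.10 FPKM in the DRP1 knockdown libraries. The groups did not overlap, and Ddx58 was 1.52-fold higher (log2 difference 0.44, SE 0.068, limma adjusted p = 0.004). Ifih1 had 1.34, 1.31 and 1.14 FPKM in the PGAM5 knockdown, against 1.27, 1.29 and 1.49 FPKM in the DRP1 knockdown. Its groups overlapped and it did not pass (log2 difference -0.05, SE 0.079). Dhx58, which encodes LGP2, a regulator of those sensors, stood at 2.05, 1.65 and 1.69 FPKM in the PGAM5 knockdown, against 1.52, 1.21 and 1.17 FPKM in the DRP1 knockdown. Its groups did not overlap, yet it missed the threshold on FPKM (limma adjusted p = 0.066) and passed on reads (voom adjusted p = 0.036), with adjusted p of 0.035 to 0.18 over 15 alternatives.

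Trim25, a ubiquitin ligase of RIG-I signalling, was the most abundant of the sensor group, at 69.3 ± 3.1 FPKM in PGAM5 knockdown cells against 72.6 ± 1.6 FPKM in DRP1 knockdown cells, and did not pass (log2 difference -0.07, SE 0.039). Stat2, a part of the type I complex, stood at 2.59 ± 0.38 FPKM with PGAM5 knockdown against 2.63 ± 0.19 FPKM with DRP1 knockdown, with overlapping groups (log2 difference -0.02, SE 0.091).

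Among the ISG15 genes the enzyme that removes the modifier rose and the modifier itself did not pass, and the difference between them was not tested. Isg15 encodes a ubiquitin-like protein that is attached to other proteins, Herc6 encodes its main ligase in the mouse, and Usp18 encodes the protease that takes it off and also damps signalling at the type I receptor. Usp18 had 10.9, 11.6 and 11.8 FPKM in the PGAM5 knockdown libraries, against 4.29, 4.84 and 5.20 FPKM in the DRP1 knockdown libraries. The lowest PGAM5 knockdown library was above the highest of the others by more than the whole spread of either group (2.39-fold, log2 difference 1.11, SE 0.066, limma adjusted p = 5.8e-05). Isg15 had 9.23, 8.83 and 9.97 FPKM in the PGAM5 knockdown, against 9.61, 7.03 and 8.62 FPKM in the DRP1 knockdown, so the groups overlapped (log2 difference 0.14, SE 0.10, limma adjusted p = 0.34). Herc6 was low, at 0.218 ± 0.0063 FPKM with PGAM5 knockdown against 0.163 ± 0.047 FPKM with DRP1 knockdown from 106 reads with PGAM5 knockdown against 83 with DRP1 knockdown, and did not pass on reads (voom adjusted p = 0.20).

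The OAS family had the most calls of the subfamilies on FPKM, while on reads it and the group of other effectors had 5 each. OAS enzymes sense double-stranded RNA and make short oligoadenylates that activate the nuclease RNase L. Of 8 members 5 rose, 1 did not pass and 2 were below the filter. All 6 tested had every PGAM5 knockdown library above every DRP1 knockdown library, as had 23% of all genes tested. The summed level of the family was 108, 110 and 107 FPKM in the PGAM5 knockdown, against 90.0, 88.4 and 91.3 FPKM in the DRP1 knockdown.

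Oas2 had the widest difference of the family, at 4.72, 4.46 and 3.91 FPKM in the PGAM5 knockdown, against 2.87, 2.62 and 2.92 FPKM in the DRP1 knockdown (1.56-fold, log2 difference 0.49, SE 0.072, limma adjusted p = 0.003). Oas3, the longest OAS enzyme, had 10.7, 10.03 and 8.90 FPKM in the PGAM5 knockdown, against 7.38, 7.97 and 7.54 FPKM in the DRP1 knockdown (1.29-fold, limma adjusted p = 0.011). Oasl1, an OAS-like protein known in the mouse to hold back translation of Irf7, had 24.4, 22.6 and 22.3 FPKM in the PGAM5 knockdown, against 20.2, 19.2 and 18.8 FPKM in the DRP1 knockdown (1.19-fold, limma adjusted p = 0.0085). In each of these 3 genes the groups stood clear of each other, with every PGAM5 knockdown library the higher.

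Oas1g was the most abundant member of the family, with 40.5, 41.4 and 43.5 FPKM in the PGAM5 knockdown, against 34.4, 33.6 and 36.1 FPKM in the DRP1 knockdown (1.20-fold, limma adjusted p = 0.0038). Oas1a had 25.8, 29.8 and 26.9 FPKM in the PGAM5 knockdown, against 23.5, 23.6 and 24.3 FPKM in the DRP1 knockdown (1.16-fold, limma adjusted p = 0.031). The longest transcript of Oas1a was matched by Oas1g over 100% of its length at 97.5% identity, and that of Oas1g by Oas1a over 94.1%, so how reads were split between them is uncertain. The adjusted p of Oas1a, from limma or voom, was 0.019 to 0.096 over all 15 alternatives. Its call was lost in 7 of them, and these include the fits that left out PGAM5 knockdown library 2 or any single DRP1 knockdown library.

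Oas1b, which the annotation lists as a polymorphic pseudogene, stood at 1.43 ± 0.17 FPKM with PGAM5 knockdown against 1.14 ± 0.092 FPKM with DRP1 knockdown and did not pass (limma adjusted p = 0.15), although its groups did not overlap. Oas1c (0.355 ± 0.19 FPKM with PGAM5 knockdown against 0.36 ± 0.054 FPKM with DRP1 knockdown) and Oasl2 (0.0667 ± 0.045 FPKM with PGAM5 knockdown against 0.0568 ± 0.05 FPKM with DRP1 knockdown) were low in both groups and overlapped. Oas1a, Oas1b, Oas1c, Oas1g, Oas2 and Oas3 lie within 1 cluster on chromosome 5, from the start of Oas2 at 120730333 to the end of Oas1a at 120907521 (mm10), so 4 of the 5 OAS genes that rose lie in the same cluster as Oas1b and Oas1c.

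**Figure D2:**
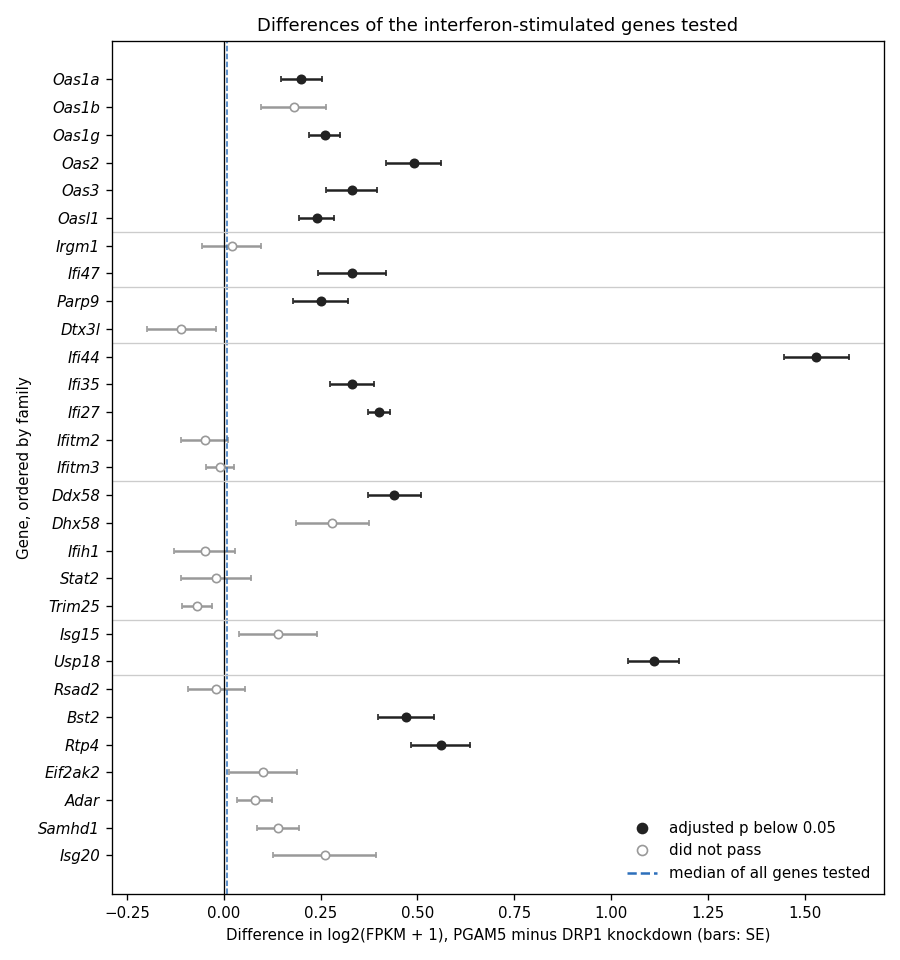
Difference in log2(FPKM + 1), PGAM5 minus DRP1 knockdown, for the 29 genes tested, with bars of 1 SE from limma and families divided by grey lines. Filled points passed an adjusted p of 0.05. The 14 that passed lie right of 0, and the open points run from -0.11 for Dtx3l to 0.28 for Dhx58.

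In the IFIT family no gene was called higher in the PGAM5 knockdown and Ifit3 fell. IFIT proteins bind viral RNA by its foreign end and block its translation, and they are among the genes most strongly raised by type I interferon. All 3 members were below the filter, and their summed level was 1.63, 1.94 and 2.16 FPKM in the PGAM5 knockdown, against 2.62, 2.59 and 2.62 FPKM in the DRP1 knockdown. Ifit1 had 0.636, 0.946 and 0.822 FPKM in the PGAM5 knockdown, against 1.12, 1.15 and 1.20 FPKM in the DRP1 knockdown, from 111 reads with PGAM5 knockdown against 172 with DRP1 knockdown. Its groups did not overlap, with the DRP1 knockdown above, but it did not pass on reads (voom adjusted p = 0.066, 0.066 to 0.12 over 3 alternatives).

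Ifit3 had 0.161, 0.14 and 0.282 FPKM in the PGAM5 knockdown, against 0.534, 0.389 and 0.575 FPKM in the DRP1 knockdown. It fell on reads (voom log2 difference -1.33, adjusted p = 0.024, 0.024 to 0.042 over 3 alternatives), which rests on 18 reads with PGAM5 knockdown against 49 with DRP1 knockdown. Ifit3b, a near copy, matched 97.4% of the longest transcript of Ifit3, so reads that fit both can be missing from either. Ifit2 stood at 0.915 ± 0.12 FPKM with PGAM5 knockdown against 0.954 ± 0.10 FPKM with DRP1 knockdown, with overlapping groups (voom adjusted p = 0.89).

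Rsad2 and Cmpk2, which are next to each other on chromosome 12, were not called higher or lower. Rsad2 encodes viperin, which makes a chain-ending nucleotide, and Cmpk2 encodes a nucleotide kinase of mitochondria. Rsad2 had 2.21, 2.22 and 2.19 FPKM in the PGAM5 knockdown, against 1.96, 2.37 and 2.43 FPKM in the DRP1 knockdown. The first 3 values lay inside the range of the others (log2 difference -0.02, SE 0.074, limma adjusted p = 0.88). Cmpk2 had 0.811, 0.633 and 0.774 FPKM in the PGAM5 knockdown, against 0.939, 0.937 and 0.876 FPKM in the DRP1 knockdown, with no overlap, and did not pass on reads (voom adjusted p = 0.23).

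Most of the GTPase genes were low. GBP and IRG proteins are GTPases that gather on the membranes around intracellular pathogens. Of 6 members Ifi47 rose, Irgm1 did not pass and 4 were below the filter. Ifi47 had 2.71, 2.30 and 2.61 FPKM in the PGAM5 knockdown, against 1.63, 2.13 and 1.72 FPKM in the DRP1 knockdown (1.39-fold, limma adjusted p = 0.032, 0.023 to 0.10 over 15 alternatives). Its call was lost with no expression filter, with the replicate block, and without library 1 or 3 of either knockdown. Irgm1, which restrains the other IRG proteins, stood at 2.07 ± 0.069 FPKM with PGAM5 knockdown against 2.03 ± 0.25 FPKM with DRP1 knockdown, with overlapping groups.

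Gbp3 had 0.621, 0.694 and 0.385 FPKM in the PGAM5 knockdown, against 0.342, 0.294 and 0.279 FPKM in the DRP1 knockdown. Gbp7 had 0.251, 0.284 and 0.311 FPKM in the PGAM5 knockdown, against 0.088, 0.151 and 0.219 FPKM in the DRP1 knockdown. Both had the PGAM5 knockdown above without overlap and both missed the threshold on reads (voom adjusted p = 0.054 for Gbp3 and 0.057 for Gbp7). Gbp2, from 3 reads in each group, was at the floor, and Igtp stood at 0.813 ± 0.073 FPKM with PGAM5 knockdown against 0.602 ± 0.15 FPKM with DRP1 knockdown with overlapping groups. The MX genes, dynamin-like GTPases that trap viral particles, were low too. Mx1 had 1 read with PGAM5 knockdown and 4 with DRP1 knockdown, and Mx2, listed as a polymorphic pseudogene, stood at 0.462 ± 0.12 FPKM with PGAM5 knockdown against 0.366 ± 0.034 FPKM with DRP1 knockdown with overlapping groups.

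**Figure D3:**
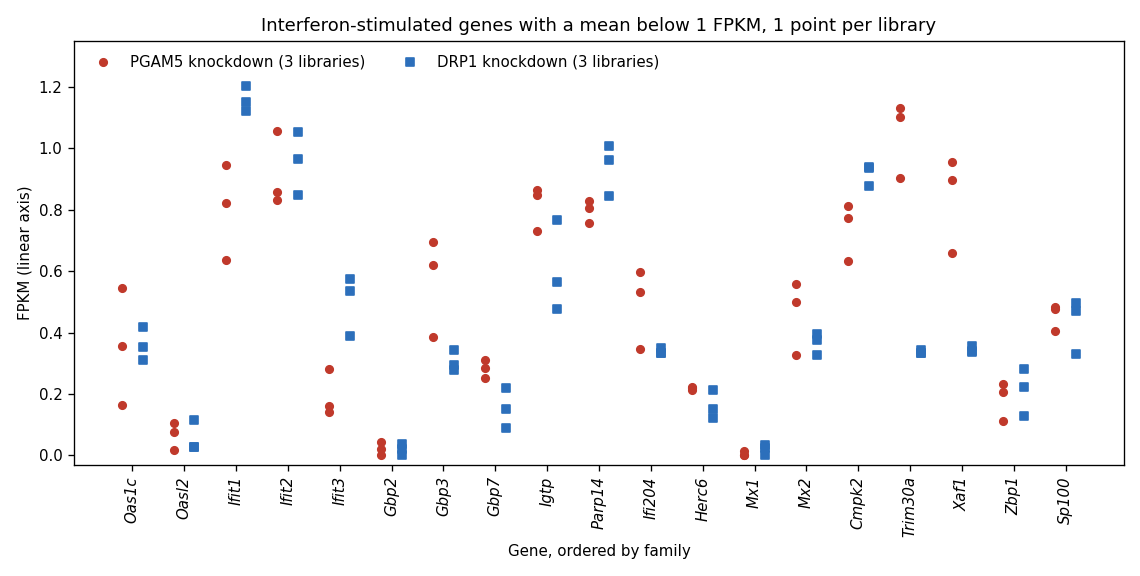
FPKM on a linear axis for the 19 members with a mean below 1 FPKM, 1 point per library, PGAM5 knockdown (red circles) left of DRP1 knockdown (blue squares). Trim30a, Xaf1, Gbp3 and Gbp7 have the PGAM5 knockdown above without overlap, and Ifit1, Ifit3, Parp14 and Cmpk2 have the DRP1 knockdown above.

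In the PARP group, Parp9 rose while its partner did not pass, with the difference between them not tested. Parp9 and Dtx3l encode a complex that joins ADP-ribose and ubiquitin to proteins, and Parp14 encodes an ADP-ribosyltransferase known as a coactivator of STAT6, the STAT protein of IL-4 signalling. Parp9 had 6.50, 5.85 and 5.41 FPKM in the PGAM5 knockdown, against 5.17, 4.62 and 4.67 FPKM in the DRP1 knockdown (1.23-fold, limma adjusted p = 0.04, 0.012 to 0.12 over 15 alternatives). Its call was lost with no expression filter, with a filter at 0.1 FPKM, and where PGAM5 knockdown library 1 or 2, or library 2 or 3 of the DRP1 knockdown, was left out. Dtx3l had 2.89, 2.91 and 2.40 FPKM in the PGAM5 knockdown, against 3.08, 3.37 and 2.67 FPKM in the DRP1 knockdown, with overlap (log2 difference -0.11, limma adjusted p = 0.40). The genes overlap head to head on chromosome 16, by 9.4% of the exons of Parp9, and with no strand setting known for the counts, reads from that stretch cannot be assigned. Parp14 had 0.804, 0.829 and 0.757 FPKM in the PGAM5 knockdown, against 1.01, 0.845 and 0.96 FPKM in the DRP1 knockdown, the groups close but not overlapping, and did not pass on reads (voom adjusted p = 0.17).

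The IFI-named genes held the widest difference of the list. Ifi44, an interferon-induced protein of the cytoplasm, had 3.98, 3.69 and 3.90 FPKM in the PGAM5 knockdown libraries, against 0.79, 0.517 and 0.766 FPKM in the DRP1 knockdown libraries. It was 5.58-fold higher from 1240 reads with PGAM5 knockdown against 237 with DRP1 knockdown (log2 difference 1.53, SE 0.084, limma adjusted p = 4.4e-05). Since the log2(FPKM + 1) scale compresses low values, the difference on reads was larger, at 2.49. No ISRE core was found in its promoter window.

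Ifi27 was the most abundant member that rose, with 251, 255 and 261 FPKM in the PGAM5 knockdown, against 196, 190 and 195 FPKM in the DRP1 knockdown (1.32-fold, log2 difference 0.40, SE 0.028, limma adjusted p = 0.00011). Ifi35, an interferon-induced leucine zipper protein, had 4.95, 5.21 and 5.18 FPKM in the PGAM5 knockdown, against 3.74, 3.67 and 4.17 FPKM in the DRP1 knockdown (1.33-fold, limma adjusted p = 0.0055). Both were clear of overlap, and both kept the call in every alternative run. Ifi204, a sensor of DNA, stood at 0.493 ± 0.13 FPKM with PGAM5 knockdown against 0.338 ± 0.0089 FPKM with DRP1 knockdown and did not pass on reads (voom adjusted p = 0.21).

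The IFITM genes, whose proteins block the entry of viruses from endosomes, did not pass at high levels. Ifitm3 had 487, 498 and 529 FPKM in the PGAM5 knockdown, against 518, 507 and 500 FPKM in the DRP1 knockdown (log2 difference -0.01, SE 0.037). Ifitm2 had 135, 128 and 151 FPKM in the PGAM5 knockdown, against 143, 138 and 146 FPKM in the DRP1 knockdown (log2 difference -0.05, SE 0.060), and 44.4% of its longest transcript was matched by the overlapping gene Gm45717. In both the groups overlapped.

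**Figure D4:**
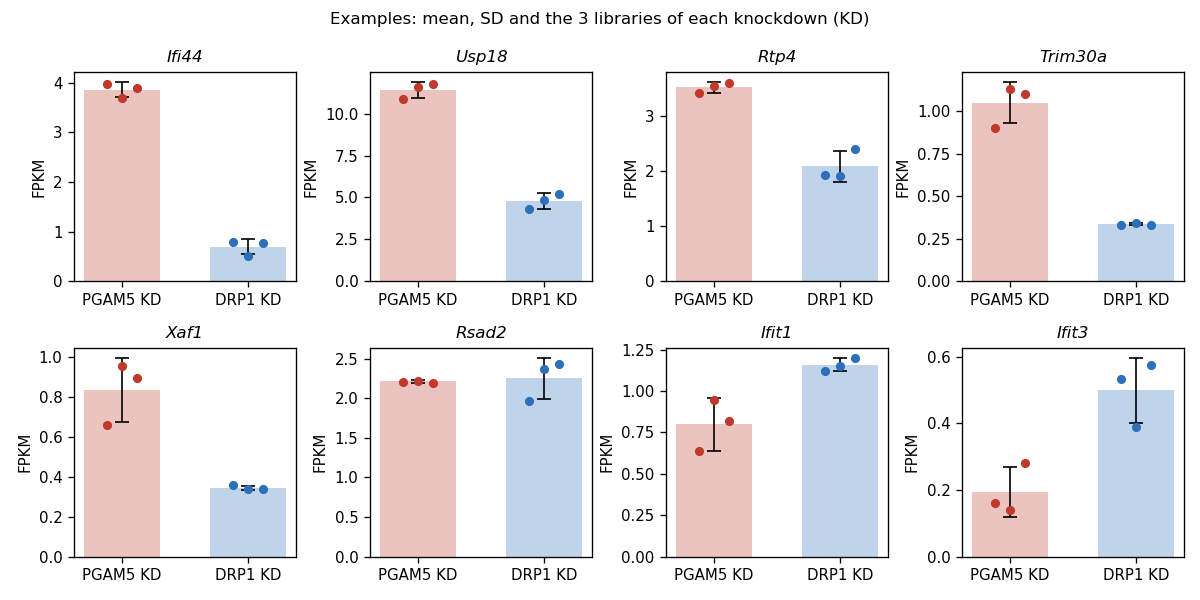
Bars give mean FPKM with SD and points the 3 libraries of each knockdown (KD), PGAM5 KD left and DRP1 KD right, each panel with its own axis from 0. Ifi44, Usp18, Rtp4, Trim30a and Xaf1 lie higher in the PGAM5 knockdown, Rsad2 averages 2.21 FPKM with PGAM5 knockdown against 2.25 FPKM with DRP1 knockdown, and Ifit1 and Ifit3 lie lower.

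Of the 12 other effectors 2 rose, 5 did not pass and 5 were below the filter. Bst2 encodes tetherin, which holds budding virus at the cell surface, and Rtp4 encodes an interferon-induced chaperone of receptors. Bst2 had 77.4, 71.8 and 87.9 FPKM in the PGAM5 knockdown, against 54.4, 59.5 and 56.3 FPKM in the DRP1 knockdown (1.39-fold, log2 difference 0.47, SE 0.072, limma adjusted p = 0.0039). Rtp4 had 3.41, 3.54 and 3.59 FPKM in the PGAM5 knockdown, against 1.92, 1.91 and 2.40 FPKM in the DRP1 knockdown (1.69-fold, log2 difference 0.56, SE 0.076, limma adjusted p = 0.0023). Both were clear of overlap, and 15.9% of the longest transcript of Rtp4 was matched by the overlapping gene Gm45338.

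Larger folds were seen in a pair of low genes. Trim30a, known in the mouse to hold back Toll-like receptor signalling, had 0.904, 1.13 and 1.10 FPKM in the PGAM5 knockdown, against 0.332, 0.344 and 0.333 FPKM in the DRP1 knockdown. It was 3.11-fold higher from 225 reads with PGAM5 knockdown against 77 with DRP1 knockdown and rose on reads (voom log2 difference 1.61, adjusted p = 7.1e-05). Xaf1, a partner of the apoptosis inhibitor XIAP, had 0.66, 0.954 and 0.897 FPKM in the PGAM5 knockdown, against 0.357, 0.338 and 0.340 FPKM in the DRP1 knockdown (2.42-fold, 205 reads with PGAM5 knockdown against 90 with DRP1 knockdown, voom adjusted p = 0.00086). Among the 19 members below the filter, 4 had the PGAM5 knockdown above and 4 the DRP1 knockdown above, where 4.77% and 6.08% of all genes with reads and a mean below 1 FPKM did. Those shares take in genes with any read at all, whereas 16 of the 19 members averaged at least 10 reads. The members and that background are thus not alike in depth.

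Eif2ak2, Adar, Samhd1 and Isg20 did not pass on FPKM with all 6 libraries. Eif2ak2, which encodes the kinase PKR, stood at 5.46 ± 0.81 FPKM with PGAM5 knockdown against 4.99 ± 0.20 FPKM with DRP1 knockdown, and Adar, the editor of double-stranded RNA, at 18.0 ± 0.99 FPKM with PGAM5 knockdown against 16.9 ± 0.22 FPKM with DRP1 knockdown. Adar passed without PGAM5 knockdown library 3 (limma adjusted p = 0.028) and in no other of 15 alternatives, where it was 0.16 to 0.45. Samhd1, which breaks down the building blocks of DNA, had 11.3, 10.3 and 11.7 FPKM in the PGAM5 knockdown, against 9.97, 9.55 and 10.4 FPKM in the DRP1 knockdown. It did not pass on FPKM (limma adjusted p = 0.10) and passed on reads (voom adjusted p = 0.039), with adjusted p of 0.039 to 0.27 over 15 alternatives, among them 0.046 without PGAM5 knockdown library 2. Isg20, an exonuclease, stood at 1.49 ± 0.31 FPKM with PGAM5 knockdown against 1.08 ± 0.29 FPKM with DRP1 knockdown and did not pass. Zbp1, a sensor that can start necroptosis (0.184 ± 0.064 FPKM with PGAM5 knockdown against 0.212 ± 0.077 FPKM with DRP1 knockdown), and Sp100, a nuclear body protein (0.456 ± 0.044 FPKM with PGAM5 knockdown against 0.432 ± 0.09 FPKM with DRP1 knockdown), overlapped at low levels.

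Upstream, interferon transcripts were at or near 0. Of 21 interferon genes listed, 20 had 0 reads in all 6 libraries, and Ifnb1 had 3 reads in the PGAM5 knockdown against 0 in the DRP1 knockdown, at the floor of 3 reads. Among 9 receptor and kinase genes 0 rose, 3 fell, 5 did not pass and 1 was below the filter. Of all genes tested 13.8% were called higher and 11.7% lower. Ifngr2, a chain of the interferon gamma receptor, fell (23 ± 0.50 FPKM with PGAM5 knockdown against 28.2 ± 0.36 FPKM with DRP1 knockdown, limma adjusted p = 0.00091). Jak2 (log2 difference -0.15) and Ifnar1, a chain of the type I receptor (-0.14), also fell, but each call was lost in 9 of 15 alternatives. For Jak2 these include every fit with 1 library left out other than DRP1 knockdown library 3, and for Ifnar1 every such fit other than PGAM5 knockdown library 2. Over all 15 alternatives the adjusted p, from limma or voom, was 0.04 to 0.15 for Jak2 and 0.02 to 0.11 for Ifnar1.

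Of 9 transcription factor genes Irf7 rose and 8 did not pass, where 13.8% of all genes tested were called higher. Irf7, which carries the second wave of type I interferon, stood at 8.36 ± 0.31 FPKM with PGAM5 knockdown against 3.57 ± 0.18 FPKM with DRP1 knockdown (2.34-fold, limma adjusted p = 2.9e-05).

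Of 16 sensing and adaptor genes found, 1 rose (Aim2, a sensor of DNA, named because it was alone, with a log2 difference of 0.16 and a limma adjusted p of 0.0058), 4 fell, 9 did not pass and 2 were below the filter, where 13.8% of all genes tested were called higher and 11.7% lower. Tmem173, which encodes STING, the adaptor of DNA sensing, stood at 7.49 ± 0.33 FPKM with PGAM5 knockdown against 10.5 ± 0.38 FPKM with DRP1 knockdown (log2 difference -0.43, limma adjusted p = 0.00079). Ticam2 (-0.36), Traf3 (-0.27) and Tlr4, the receptor of bacterial lipopolysaccharide (-0.21), fell as well, and Traf3 lost its call without DRP1 knockdown library 3 (limma adjusted p = 0.055, the highest of 15 alternatives, from 0.0012). Of 10 negative regulators 2 rose and 8 did not pass. Ptpn6, the phosphatase SHP-1, stood at 117 ± 1.6 FPKM with PGAM5 knockdown against 82.7 ± 1.0 FPKM with DRP1 knockdown (limma adjusted p = 3.9e-05). Ptpn11 had a log2 difference of 0.14, a call lost in 9 of 15 alternatives, also in every fit with 1 library left out other than PGAM5 knockdown library 3. Its adjusted p, from limma or voom, was 0.011 to 0.11 over all 15.

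Relatives of the members did not share 1 direction. Of 17 other IFI and IFITM genes 2 rose, 2 fell, 1 did not pass and 12 were below the filter. Ifi27l2a (5.26 ± 1.1 FPKM with PGAM5 knockdown against 2.79 ± 0.46 FPKM with DRP1 knockdown) and Mndal (1.69 ± 0.19 FPKM with PGAM5 knockdown against 0.711 ± 0.097 FPKM with DRP1 knockdown) rose, while Ifitm6 (43.5 ± 2.1 FPKM with PGAM5 knockdown against 59.9 ± 1.9 FPKM with DRP1 knockdown) and Ifi30, a thiol reductase of lysosomes (115, 117 and 127 FPKM in the PGAM5 knockdown, against 144, 145 and 144 FPKM in the DRP1 knockdown), fell. Gbp8 was the only tested gene of 11 other GBP and IRG genes and fell (log2 difference -0.35, limma adjusted p = 0.013), and lost the call when library 1 or library 3 of the DRP1 knockdown was left out (0.052 for each). None of the 4 tested of 5 other PARP genes passed on FPKM. Zc3hav1, the most abundant, had 55.3 ± 2.8 FPKM with PGAM5 knockdown against 60.6 ± 0.85 FPKM with DRP1 knockdown, without overlap. It missed the threshold on FPKM (limma adjusted p = 0.052, 0.015 to 0.15 over 15 alternatives) and fell on reads (voom adjusted p = 0.015). It also passed without PGAM5 knockdown library 1 or 3. Parp11, named after its values were seen, fell on reads as well (voom adjusted p = 0.032) and did not pass on FPKM (limma adjusted p = 0.077). The 2 tested of 7 other OAS-pathway genes did not pass either, with Abce1 at 72.6 ± 0.89 FPKM with PGAM5 knockdown against 73.1 ± 0.63 FPKM with DRP1 knockdown. All 3 other IFIT genes were below the filter, with Ifit3b the highest.

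A wider list of 82 further interferon-stimulated genes gave 20 that rose, 7 that fell, 26 that did not pass and 29 below the filter. Among all genes tested 13.8% were called higher and 11.7% lower. The median log2 difference was 0.12 over the 53 tested of this list against 0.009 for all genes. H2-T23, an MHC class Ib gene, rose (15.3 ± 0.38 FPKM with PGAM5 knockdown against 8.07 ± 0.52 FPKM with DRP1 knockdown, 1.90-fold). Ube2l6, the enzyme that hands ISG15 to its ligase, rose (5.07 ± 0.16 FPKM with PGAM5 knockdown against 2.94 ± 0.16 FPKM with DRP1 knockdown, 1.72-fold), as did Irf7, which this list also holds. Cd274, which encodes PD-L1, fell (2.29 ± 0.27 FPKM with PGAM5 knockdown against 4.19 ± 0.23 FPKM with DRP1 knockdown, log2 difference -0.66, limma adjusted p = 0.00097).

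**Figure D5:**
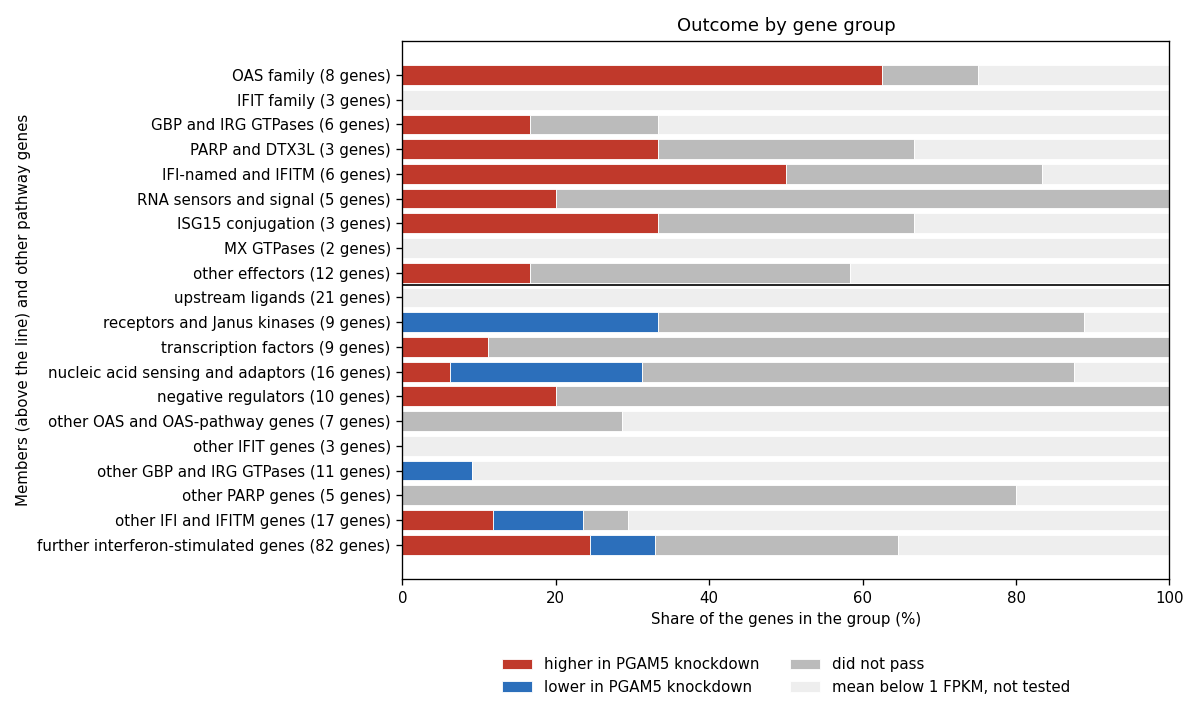
Share of the genes of each group that were called higher in the PGAM5 knockdown, called lower, did not pass or were not tested for a mean below 1 FPKM, with the member families above the black line and the other pathway lists below it. The OAS family has 5 of 8 higher, the receptors and kinases have 3 of 9 lower, and no tested member was called lower.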

How the data were processed

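RNA was captured by poly-A tail, fragmented and copied from random primers, per the labels' protocols. The authors deposited 1 FPKM value per gene and library, for 54532 Ensembl identifiers. Per the submitters' processing notes, HISAT2 2.0.5, featureCounts 1.5.0-p3 and the build mm10 were used. The protocols allow for strand-marked and unmarked libraries alike, and the sources used here give no annotation release, FPKM formula or strand setting. Because FPKM is scaled to the library, 1 very abundant gene pulls down all other values.

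Symbols, coordinates and exonic lengths came from GENCODE M21 (same build), which matched 54495 identifiers and missed 37. Each FPKM, times exonic length and 1 depth per library, gave the recovered reads. The test was limma 3.58.1 in R 4.3.3 on log2(FPKM + 1), a scale that understates changes of low genes, with a mean-variance trend, two-sided. Folds are ratios of mean FPKM. Near copies were searched with blastn 2.17.0 (97% identity or more over at least 100 bases). Alternatives were a pseudocount of 0.1, no filter, a filter at 0.1 FPKM, quantile and median-ratio scaling, no trend, a replicate block, voom, and leaving out each library. Steps were tested on simulated data. The members and all gene lists were chosen with earlier results of these data known, and so no test over a list was run. All members were named, and from each other list up to 4 called genes with the largest differences, or the most abundant one. Detection limits of 3 reads cover counting error only.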

Additional observations from a re-analysis of the deposited data

How the results depend on the processing

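Of the 14 members that rose, 11 kept the call in all 15 alternatives, and Oas1a, Ifi47 and Parp9 lost it in at least 1. The number called higher ran from 11 to 18, and was 14 without PGAM5 knockdown library 3, which stood apart, with Adar in place of Ifi47. The number called lower was 0 with the filter at 1 FPKM and 1, Ifit3, where low genes were let in: with no filter (48 tested), with a filter at 0.1 FPKM (45) and with voom on at least 10 reads (45). The median difference of 0.24 was 0.143 with no filter and 0.154 with the filter at 0.1 FPKM, both of which add low genes that the scale compresses. It ran from 0.191 (without DRP1 knockdown library 2) to 0.26 over the settings that left out 1 library each. Over these settings the genes called higher ran from 971 to 1458 and lower from 825 to 1280, where all 6 libraries gave 1464 and 1240. Some members near 0 changed sign: Irgm1 from -0.02 to 0.08 with a library left out, Ifitm2 from -0.11 to 0.01, Ifitm3 from -0.05 to 0.01 and 0.01 under quantile normalization, Stat2 from -0.08 to 0.07 and Rsad2 from -0.09 to 0.02, and none of these passed in any. The titles share replicate numbers, but same-numbered libraries did not deviate together (r = 0.0215, 0.031 and -0.00034), and not every library correlated best with its own number. With the replicate block 12 members were called higher and 0 lower, and the median difference was 0.24. Members with few reads, such as Gbp2 (3 reads in each group) and Mx1 (1 with PGAM5 knockdown, 4 with DRP1 knockdown), are limited by depth: a difference there was not detectable.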

Other observations

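Some interferon-stimulated genes outside the 48, with a mean below 1 FPKM, were also more than 2-fold higher in the PGAM5 knockdown. The genes in this paragraph were chosen after their values were seen, and their differences are given as values. Epsti1 had 1.019, 1.425 and 1.223 FPKM in the PGAM5 knockdown, against 0.187, 0.317 and 0.354 FPKM in the DRP1 knockdown, from 148 reads with PGAM5 knockdown against 38 with DRP1 knockdown. Ifi44l, a relative of Ifi44, had 1.432, 1.157 and 0.992 FPKM in the PGAM5 knockdown, against 0.316, 0.411 and 0.099 FPKM in the DRP1 knockdown, from 86 reads with PGAM5 knockdown against 20 with DRP1 knockdown. Phf11d had 1.327, 1.348 and 1.36 FPKM in the PGAM5 knockdown, against 0.593, 0.578 and 0.72 FPKM in the DRP1 knockdown, from 317 reads with PGAM5 knockdown against 160 with DRP1 knockdown. In each of the 3 genes every PGAM5 knockdown library was above every DRP1 knockdown library.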
